A study of Mus musculus with 38 samples.

Results

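The 30 genes described here are the PPAR receptors, their coactivator, the enzymes of fatty acid oxidation and a set of PPAR target genes. They were taken by symbol from a list chosen with earlier results of these data known, so counts of called members are not independent evidence. All 30 matched rows among the 21441 genes of the expression tables. The list holds 3 receptors (Ppara, Ppard and Pparg), the coactivator Ppargc1a, 17 genes of the carnitine shuttle and of mitochondrial and peroxisomal oxidation, and 9 genes used as markers of PPAR activity. RNA-seq was made from intestinal epithelium of C57BL6/J wild-type animals lacking vitamin D, a deficiency that both treatment groups share. The treated mice received 1,25(OH)2D3 (the active hormone) intraperitoneally at 10 ng per g of body weight, and the control mice 0.1 ml of a propylene glycol and ethanol vehicle; all were killed 4 h later. Villi gave 7 vitamin D and 6 vehicle libraries, crypts 6 of each, and colon 7 vitamin D and 6 vehicle libraries. Villi and crypts came from the proximal small intestine and were parted on a 70 µm filter after EDTA, whereas colon epithelium was scraped off with a glass slide. The labels give an age of 10 to 13.3 weeks in one place and 12 to 14 weeks in another, and call the mice pooled males and females. Levels are FPKM, fragments scaled by transcript length and library depth, which can be compared between genes of a library.

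PPARs are nuclear receptors that bind fatty acids and their derivatives and act on DNA as a pair with a retinoid X receptor, the same partner that the vitamin D receptor uses. PPARα and PPARδ switch on genes for taking fatty acids into mitochondria and peroxisomes and oxidising them, and PPARγ is best known from fat cells and from the surface epithelium of the colon. Long-chain acyl groups enter mitochondria through the carnitine shuttle and are then shortened in repeated rounds by acyl-CoA dehydrogenases, hydratases, hydroxyacyl-CoA dehydrogenases and thiolases. In the gut, villus cells absorb dietary fat, whereas colon cells burn short-chain fatty acids made by bacteria.

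The depth was 13.8 to 17.5 (median 15.8) in units of 1e+06 reads, derived from the steps between low FPKM values. Cyp24a1, a hydroxylase strongly induced by vitamin D, stood at 403 FPKM or more in each vitamin D library and at 64.7 FPKM or less in each vehicle library, so no library went against its treatment label. Vehicle libraries 6 of villi and 6 of colon held 62.2 and 64.7 FPKM of Cyp24a1, more than the other vehicle libraries. Vdr, the gene of the vitamin D receptor, was called in no tissue (limma adjusted p = 0.675 in villi, 0.381 in crypts and 0.909 in colon). By Xist and Ddx3y, 24 libraries had the female and 14 the male pattern. Summed FPKM of 12 absorptive enterocyte markers ranged from 5288 to 16246 in the vitamin D libraries and from 3631 to 26003 in the vehicle libraries of crypts. The markers were Sis, Lct, Alpi, Anpep, Mgam, Treh, Slc5a1, Slc2a5, Slc15a1, Apoa4, Apoc3 and Mttp. In colon, smooth muscle markers summed to 17.7 to 7424 FPKM in vitamin D libraries and 19.0 to 354 in vehicle libraries.

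Ppard, the gene of PPARδ, rose in villi, crypts and colon, and no other member did so in more than 1 tissue. Pparg rose in crypts. The remaining 28 members passed the test in no tissue. Differences were tested with limma on log2(FPKM + 0.5), with p-values adjusted over all genes of the tissue, and a gene is said to have been called at an adjusted p under 0.05. The log2 fold changes, given with their standard errors, understate the change of low genes. No source used here says how many mice made a library, so p-values measure the spread between libraries, which may be technical in part. In these bulk samples, fewer cells of a type and less RNA per cell cannot be told apart.

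In villi, 1 of the 29 tested members was called, against 2.47% of all 9706 genes tested (2.17% higher and 0.299% lower). Ppard stood at 193, 254 and 365 FPKM (lowest, median and highest) in the 7 vitamin D villus libraries, against 97.8, 136 and 153 FPKM in the 6 vehicle libraries. The groups did not overlap, as was the case for 1.75% of all genes tested with vitamin D above vehicle, and the lowest vehicle value was that of replicate 5. The log2 fold change was 1.01 ± 0.15 (limma adjusted p = 0.00194, n = 7 and 6). The 3 highest vitamin D libraries were replicates 1, 2 and 4.

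In crypts, 2 of 29 tested members were called, against 1.46% of all 10733 genes tested (1.13% higher and 0.335% lower). Ppard had 258, 276 and 285 FPKM (lowest, median and highest) in the 6 vitamin D libraries and 141, 153 and 167 FPKM in the 6 vehicle libraries. The values of each group were tight and the groups did not overlap (1.23% of all genes tested stood this way). The change was 0.83 ± 0.07 on the log2 scale (limma adjusted p = 3.0e-05).

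In colon, 1 of 29 tested members was called, against 0.823% of 11540 genes tested (0.763% higher and 0.0607% lower). Ppard ranged from 168 to 263 FPKM with a median of 216 in the 7 vitamin D libraries, and from 118 to 136 FPKM with a median of 129 in the 6 vehicle libraries. Again every vitamin D library lay above every vehicle library, as for 0.754% of the genes tested, and vitamin D replicate 7 came nearest. That library also had the lowest Cyp24a1 among the vitamin D libraries of colon, at 403 FPKM. The log2 fold change was 0.73 ± 0.10 (limma adjusted p = 0.00161). Leaving out the vitamin D colon libraries 1 and 2, the highest in smooth muscle markers, gave 0.74 ± 0.11 (limma adjusted p = 0.0121). Ppard was called under all 30 alternatives tried in villi, all 27 in crypts and all 31 in colon.

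The size of the Ppard response did not differ detectably between tissues in a fit that took all libraries as independent. The vitamin D effect in villi minus that in crypts was 0.19 ± 0.16 on the log2 scale (limma adjusted p = 0.764), villi minus colon gave 0.28 ± 0.16 (0.637), and crypts minus colon 0.10 ± 0.16 (0.9995). In a fit over all libraries the difference of response was called for no member (lowest adjusted p of a member 0.482), against 0.0316%, 0.499% and 0.0771% of all genes for villi minus crypts, villi minus colon and crypts minus colon. At an unadjusted p under 0.05 there were 0 of 29 members in villi minus crypts, 1 of 28 in villi minus colon (Cpt2) and 2 of 28 in crypts minus colon (Pparg and Acot2), against 6.02%, 8.39% and 4.24% of all genes.

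**Figure D1:**
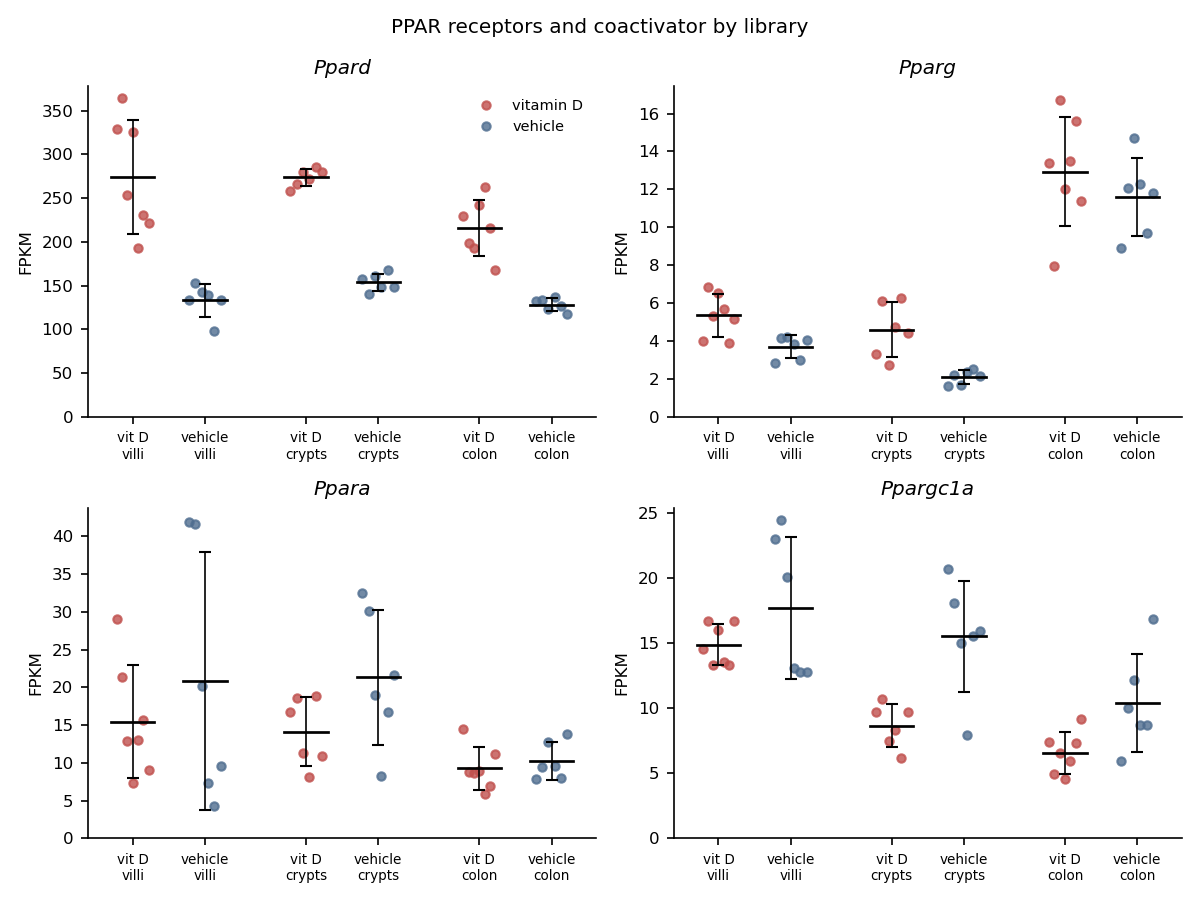
FPKM of Ppard, Pparg, Ppara and Ppargc1a in each library, vitamin D left of vehicle in villi, crypts and colon; bars give the mean and SD (n = 6 or 7). Within each tissue every vitamin D library of Ppard lies above every vehicle library, whereas the groups of Ppara overlap.

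Ppard was also by far the most abundant of the receptor genes. Of the summed FPKM of the 3 receptors, Ppard made up 90.9% to 95.9% in vitamin D villi against 74.9% to 93.0% in vehicle villi. Its share was 91.5% to 95.5% in vitamin D crypts against 81.3% to 93.4% in vehicle crypts, and 88.2% to 93.1% in vitamin D colon against 81.8% to 88.8% in vehicle colon. The share was widest in vehicle villi, where Ppara made up 4.11% to 23.5%.

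Because Ppard was the member called in each tissue, its promoter window is shown, from 250 bases before to 50 after the start site (RefSeq, GRCm38.p6, chr17:28232504-28232803, plus strand). Capitals mark the 3 matches to the GC box GGGCGG on either strand, which begin 163, 93 and 29 bases before the start site.
Ppard: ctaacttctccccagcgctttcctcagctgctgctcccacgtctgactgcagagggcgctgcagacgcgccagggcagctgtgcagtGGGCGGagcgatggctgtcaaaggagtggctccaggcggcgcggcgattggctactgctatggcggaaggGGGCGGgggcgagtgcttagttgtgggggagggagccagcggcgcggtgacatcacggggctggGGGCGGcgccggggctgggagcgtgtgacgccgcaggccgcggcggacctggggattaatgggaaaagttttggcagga
The window holds none of the nuclear receptor hexamers searched (AGGTCA and its variants AGTTCA and GGTTCA, and also GGGTCA) on either strand. RefSeq gave 28 windows for 25 of the members, with none for Angptl4, Cyp4a10, Fabp4, Acaa2 and Decr1; 19 of the 28 held a GC box, against 35.7% of all 32851 windows.

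Pparg, the gene of PPARγ, was a low-level transcript in the small intestine. In crypts it had 2.72, 4.58 and 6.26 FPKM (lowest, median and highest) in the 6 vitamin D libraries, against 1.63, 2.17 and 2.51 FPKM in the 6 vehicle libraries. The groups did not overlap, though vitamin D replicate 3 lay close to vehicle replicate 5. The log2 fold change was 0.94 ± 0.18 (limma adjusted p = 0.0206, n = 6 and 6). The call was lost without any 1 of 5 libraries (vehicle 1 or 3, or vitamin D 2, 4 or 5), with an adjusted p of up to 0.0617.

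In villi, Pparg ranged from 3.87 to 6.84 FPKM (median 5.33) in vitamin D libraries and from 2.86 to 4.22 FPKM (median 3.96) in vehicle libraries. Of the 7 vitamin D libraries, 5 lay above all vehicle libraries, and the log2 fold change was 0.47 ± 0.14 (limma adjusted p = 0.125). Blocked on the replicate number of the table columns it passed (0.54 ± 0.10, limma adjusted p = 0.0310), and blocked on that of the sample titles it did not (0.47 ± 0.13, limma adjusted p = 0.100). Colon had the most Pparg, with 7.98, 13.4 and 16.7 FPKM in vitamin D libraries and 8.88, 12.0 and 14.7 FPKM in vehicle libraries (lowest, median and highest). There the groups overlapped throughout (0.14 ± 0.16, limma adjusted p = 0.895). The response in crypts minus that in colon was 0.80 ± 0.24 (limma adjusted p = 0.482).

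Pparg is shown by the second of its 3 RefSeq windows, because it was the other called member and this window holds the most hexamers (GRCm38.p6, chr6:115362099-115362398, plus strand). Capitals mark GGGTCA, which begins 230 bases before the start site, and AGGTCA, 9 bases before it.
Pparg: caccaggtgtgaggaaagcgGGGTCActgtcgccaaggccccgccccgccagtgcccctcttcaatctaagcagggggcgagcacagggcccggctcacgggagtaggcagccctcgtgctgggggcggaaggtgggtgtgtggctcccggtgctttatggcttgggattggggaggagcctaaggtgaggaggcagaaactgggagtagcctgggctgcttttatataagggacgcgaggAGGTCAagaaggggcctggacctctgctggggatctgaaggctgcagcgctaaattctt
AGGTCA stood in 7 of the 28 windows of members and in 16.3% of all windows, and GGGTCA in 3 of 28 and 13.7%. AGTTCA stood in 3 of 28 and 14.0%, and GGTTCA in 2 of 28 and 10.4%. The direct repeat with 3 bases between hexamers, the arrangement known for the vitamin D receptor, was searched on both strands in 11 pairs made of these hexamers and GGGTGA. It was in 0 of 28 windows of members and 0.0365% of all windows. The direct repeat with 1 base between hexamers, known for PPARs and searched as AGGTCA paired with itself or with AGGACA or AGGGCA, was in 0 of 28 and 0.152%. Each hexamer is also part of the pairs, and the letters of a window say nothing of binding elsewhere.

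Ppara, the gene of PPARα, did not pass the test in any tissue. In villi it ranged from 7.32 to 29.0 FPKM (median 13) in vitamin D libraries and from 4.32 to 41.9 FPKM (median 14.9) in vehicle libraries. Vehicle replicates 1 and 2 and vitamin D replicates 1 and 2 were the highest of their groups, and the fold change had a wide error (-0.09 ± 0.50 on the log2 scale, limma adjusted p = 0.965). In crypts Ppara had 8.14 to 18.9 FPKM in vitamin D libraries and 8.21 to 32.4 FPKM in vehicle libraries (-0.52 ± 0.31, limma adjusted p = 0.451). In colon the values were 5.88 to 14.4 FPKM in vitamin D libraries and 7.82 to 13.8 FPKM in vehicle libraries (-0.15 ± 0.19, limma adjusted p = 0.899).

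Ppargc1a encodes PGC-1α, a coactivator that promotes mitochondrial biogenesis and oxidation. In crypts it had 6.16, 9.01 and 10.7 FPKM (lowest, median and highest) in vitamin D libraries, against 7.92, 15.7 and 20.8 FPKM in vehicle libraries. Vehicle replicate 4 was the only vehicle library within the vitamin D range; the other 5 lay at 15.0 FPKM or more. The log2 fold change was -0.77 ± 0.20 and missed the threshold (limma adjusted p = 0.0880). In a fit blocked on replicate number, which takes same-numbered libraries as pairs, it passed (limma adjusted p = 0.0393), and so it did without vehicle replicate 4 (-0.95 ± 0.14, 0.00246). The authors' deposited table lists an adjusted p of 0.00454 for it.

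In colon Ppargc1a ranged from 4.53 to 9.18 FPKM in vitamin D libraries and from 5.97 to 16.8 FPKM in vehicle libraries (-0.59 ± 0.21, limma adjusted p = 0.356). In villi the values were 13.3 to 16.7 FPKM with vitamin D and 12.8 to 24.5 FPKM with vehicle (-0.19 ± 0.16, limma adjusted p = 0.714). The crypt library lowest in Ppargc1a among vehicle libraries, replicate 4, was also the lowest in enterocyte markers, at 3631 FPKM summed over 12 genes. It was the only vehicle library of crypts with the male pattern of Xist and Ddx3y. With the summed markers of each library as a covariate, Ppargc1a differed by -0.68 ± 0.19 (limma adjusted p = 0.0778).

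**Figure D2:**
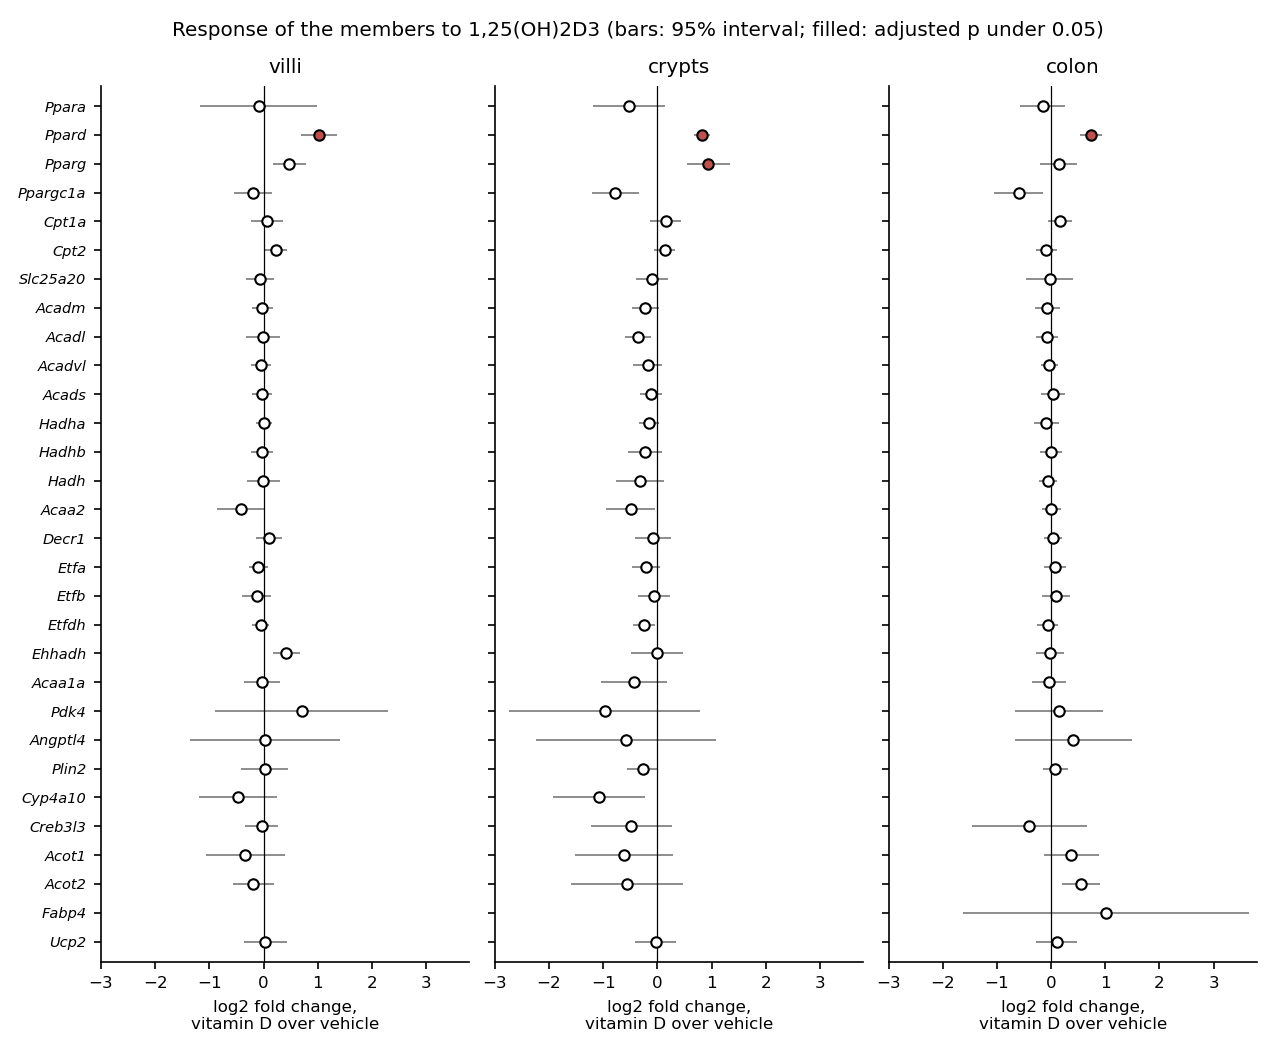
Log2 fold change of each member, vitamin D over vehicle, in villi, crypts and colon, with 95% intervals from limma; filled points passed an adjusted p of 0.05, and a missing point is a gene below the filter. Ppard is filled in each panel and Pparg in crypts, whereas the enzymes from Cpt1a to Acaa1a lie between -0.49 and 0.42.

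None of the 17 genes of the carnitine shuttle and of oxidation was called in any tissue. In colon their log2 fold changes lay between -0.09 and 0.17, and all 17 of the 95% intervals stayed within 0.5 of 0. In villi the fold changes lay between -0.42 and 0.42, with 15 of 17 intervals within those bounds, and in crypts between -0.49 and 0.15, with 12 of 17. The highest upper bound was 0.67 in villi, 0.48 in crypts and 0.41 in colon. At an unadjusted p under 0.05 in limma, 2 of the 17 were higher in villi, against 7.51% of all genes, 3 were lower in crypts, against 7.05%, and 0 passed in colon. The authors' deposited tables call 1, 0 and 0 of them in villi, crypts and colon, against 3.60%, 4.28% and 1.64% of all genes.

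Cpt1a, the enzyme that commits long-chain acyl groups to mitochondria and a common readout of PPAR activity, had 24.2, 28.1 and 33.3 FPKM (lowest, median and highest) in vitamin D villi, against 21.2, 26.3 and 35.6 FPKM in vehicle villi. The groups overlapped throughout (0.06 ± 0.14, limma adjusted p = 0.911). In crypts it had 67.2, 101 and 106 FPKM with vitamin D and 67.4, 84.9 and 107 FPKM with vehicle (0.15 ± 0.14, limma adjusted p = 0.634). In colon, 112, 149 and 171 FPKM with vitamin D stood against 113, 125 and 141 FPKM with vehicle, with 5 of 7 vitamin D libraries above and 2 below all vehicle libraries (0.17 ± 0.11, limma adjusted p = 0.8).

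Cpt2, the inner-membrane partner of Cpt1a, averaged 68.1 ± 6.22 FPKM in vitamin D villi and 58.3 ± 7.65 in vehicle villi (SD, n = 7 and 6), a log2 difference of 0.23 ± 0.09 (limma adjusted p = 0.315). Slc25a20, the acylcarnitine carrier, differed by -0.10 or less in size in each tissue. Of the acyl-CoA dehydrogenases, which take the first oxidation step for chains of different length, Acadm averaged 83.8 ± 10.1 FPKM in vitamin D and 85.1 ± 7.97 in vehicle villi (SD). Acadl, Acadvl and Acads differed by at most 0.04 in size in villi on the log2 scale.

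Hadha and Hadhb encode the subunits of the trifunctional protein, which carries out the later steps for long chains. They are transcribed away from each other from neighbouring starts, and their promoter windows overlap by 228 bases. In villi Hadha averaged 180 ± 12.2 FPKM in vitamin D and 179 ± 11.8 in vehicle libraries (SD), and Hadhb 76.7 ± 8.62 and 78.3 ± 10.0. The Hadhb window is shown as the example of a promoter shared by members (RefSeq, GRCm38.p6, chr5:30155003-30155302, plus strand), with its 4 GC boxes GGGCGG, on either strand, in capitals.
Hadhb: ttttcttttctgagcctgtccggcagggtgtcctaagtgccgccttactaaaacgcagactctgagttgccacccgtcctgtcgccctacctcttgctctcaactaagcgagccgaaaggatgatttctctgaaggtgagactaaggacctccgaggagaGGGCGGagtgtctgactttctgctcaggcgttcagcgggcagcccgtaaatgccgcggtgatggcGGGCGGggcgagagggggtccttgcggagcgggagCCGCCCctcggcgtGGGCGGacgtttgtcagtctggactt
Hadh, of the hydroxyacyl step for shorter chains, was the most abundant oxidation enzyme in villi, at 611 ± 82.1 FPKM in vitamin D and 620 ± 129 in vehicle libraries (SD). Etfa, Etfb and Etfdh, which pass the electrons on to the respiratory chain, differed by -0.13 to -0.05 on the log2 scale in villi.

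Ehhadh, a bifunctional enzyme of peroxisomal oxidation and a known PPARα target, was the enzyme closest to the threshold. It had 122, 143 and 178 FPKM (lowest, median and highest) in vitamin D villi, against 91.6, 107 and 128 FPKM in vehicle villi. Of the 7 vitamin D libraries, 4 lay above all vehicle libraries and 3 within their range. The log2 fold change was 0.42 ± 0.12 (limma adjusted p = 0.0834). Blocked on replicate number it passed (0.46 ± 0.10, limma adjusted p = 0.0415), and the authors' deposited table lists an adjusted p of 0.0172. With the summed enterocyte markers of each library as a covariate it was 0.37 ± 0.11 (limma adjusted p = 0.101). In crypts and colon the difference was -0.01 ± 0.22 and -0.02 ± 0.12.

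Acaa2, the mitochondrial thiolase, had 80.2, 134 and 168 FPKM (lowest, median and highest) in vitamin D villi, against 114, 188 and 233 FPKM in vehicle villi (-0.42 ± 0.20, limma adjusted p = 0.420). In crypts it had 122, 166 and 233 FPKM with vitamin D, against 137, 247 and 342 FPKM with vehicle (-0.49 ± 0.21, limma adjusted p = 0.287). Both pairs of groups overlapped. In crypts it passed with the replicate block (adjusted p = 0.0301), and in villi only with enterocyte markers as a covariate (adjusted p = 0.0472). Acaa1a, the peroxisomal thiolase, and Decr1, which handles unsaturated chains, were at a limma adjusted p of 0.506 or more in each tissue.

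Members lay mostly below 0 in crypts. Of the 29 tested there, 25 had a log2 fold change below 0, with a median of -0.23, against 52.4% of all genes tested, with a median of -0.01. In villi 18 of 29 were below 0 (median -0.03) and in colon 14 of 29 (median 0.00), against 52.8% and 50.0% of all genes. Absorptive enterocyte markers lay the same way in crypts: 11 of 12 were below 0 with a median of -0.49, and none was called. These markers include the lipid transport genes Apoa4, Apoc3 and Mttp, so their sum is not a measure of cell types alone. With that sum as a covariate, 21 of 29 members were below 0 with a median of -0.12. Without vehicle replicate 6 alone, 21 of 29 were below 0 with a median of -0.15.

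The lowest crypt library in these markers was vehicle 4, at 3631 FPKM, and the highest were vehicle 6 at 26003 and vehicle 5 at 22674; vitamin D libraries lay between 5288 and 16246. Without vehicle replicate 4, 1059 of 10681 genes tested were called, against 157 of 10733 with that library. Among them were 8 members, Ppard and Pparg higher, and Ppargc1a, Acadl, Hadha, Acaa2, Etfdh and Cyp4a10 lower. Of these, Acadl ranged from 78.6 to 114 FPKM in vitamin D crypts and from 97.5 to 146 FPKM in vehicle crypts. Hadha ranged from 203 to 218 FPKM in vitamin D crypts and from 184 to 251 FPKM in vehicle crypts, and Etfdh from 63.6 to 78.1 FPKM in vitamin D crypts and from 68.0 to 101 FPKM in vehicle crypts, so the groups overlapped for each of these genes. With all libraries the log2 difference was -0.35 ± 0.11 for Acadl, -0.16 ± 0.09 for Hadha and -0.24 ± 0.10 for Etfdh (SE, limma adjusted p = 0.157, 0.411 and 0.253 in that order). Vehicle 4 was the lowest vehicle library for each of these genes, and the only vehicle library of crypts with the male pattern. Vitamin D 4, the only vitamin D library of crypts with that pattern, stayed in the fit without vehicle 4. Without vehicle 4, 5 and 6 together, the calls among members were Ppard, Pparg and Ppargc1a, with 379 of 10528 genes called in all. Blocked on replicate number, 444 of 10733 genes were called. The 5 called members included Acaa2 and Cyp4a10 (limma adjusted p = 0.0301 and 0.0377).

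**Figure D3:**
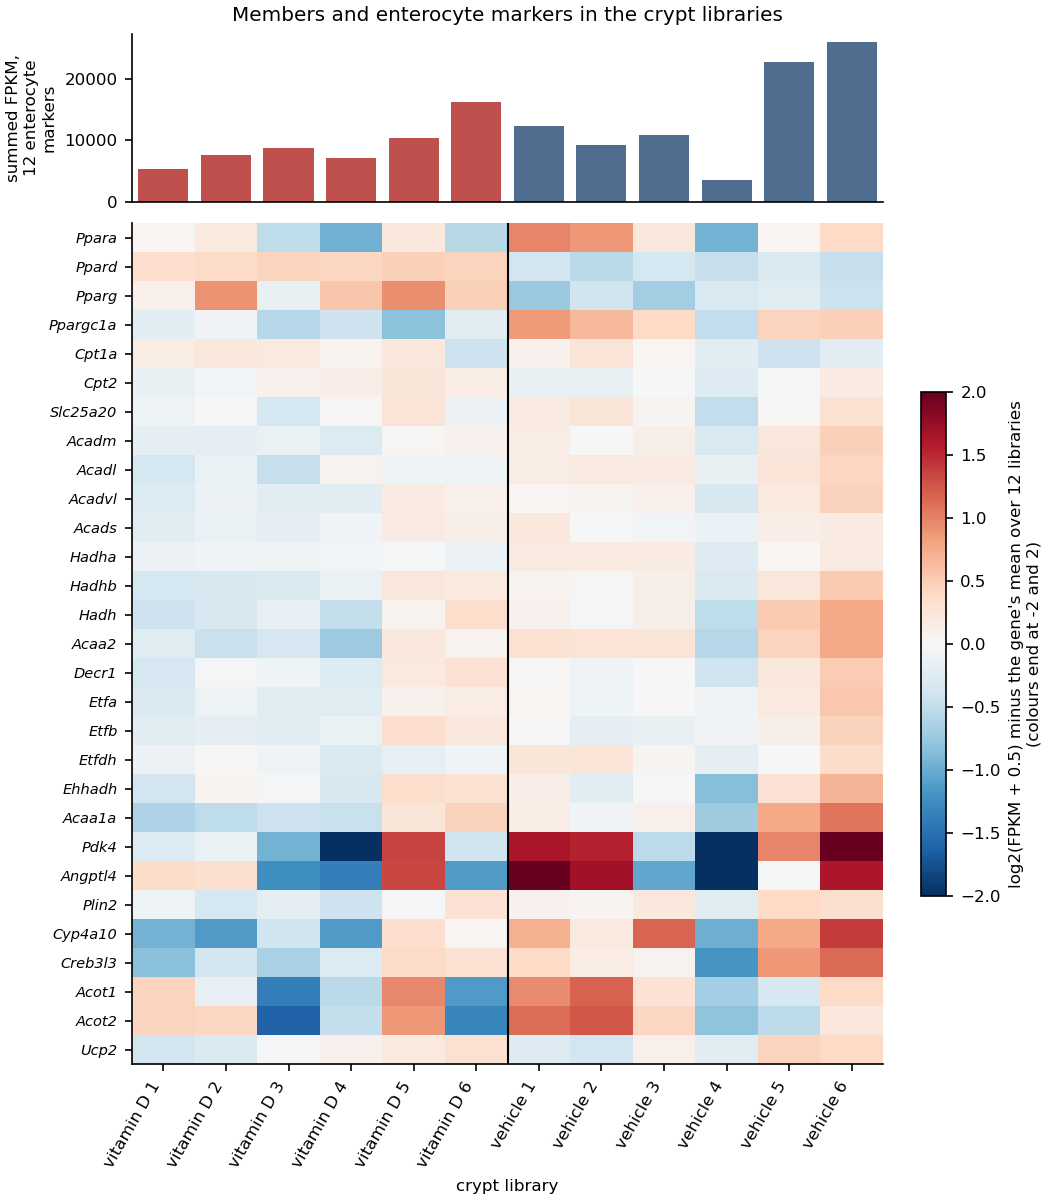
Above, summed FPKM of 12 absorptive enterocyte markers in each crypt library; below, log2(FPKM + 0.5) of each tested member minus its mean over the 12 libraries, vitamin D left of vehicle. Ppard is higher in all 6 vitamin D libraries, whereas many enzymes are low in vehicle 4, the lowest library in markers, and high in vehicle 6, the highest.

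Of the 9 target genes none was called by limma in any tissue. The log2 fold change was below 0 for 4 of 8 tested in villi, 8 of 8 in crypts and 1 of 8 in colon. Of all genes, 52.8%, 52.4% and 50.0% were below 0 in these tissues. Target genes read in the same libraries are not independent observations. At an unadjusted p under 0.05, 0 passed in villi, 1 was lower in crypts, against 7.05% of all genes, and 1 was higher in colon, against 4.17%; the authors' deposited tables call 0 of them. Pdk4, the kinase that turns off pyruvate oxidation and a sensitive PPARδ target, had 3.76, 23.8 and 37.3 FPKM (lowest, median and highest) in vitamin D villi, against 2.17, 11.9 and 43.3 FPKM in vehicle villi. The groups covered nearly the same range, and the difference of 0.70 had an error of 0.74 (limma adjusted p = 0.772). In crypts Pdk4 had 0.974, 6.18 and 21.1 FPKM with vitamin D, against 0.677, 20.0 and 36.5 FPKM with vehicle (-0.97 ± 0.81, limma adjusted p = 0.606). In both tissues replicate 4 was the lowest vitamin D library, and vehicle replicate 4 was among the lowest of its group.

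Angptl4, a secreted inhibitor of lipoprotein lipase, varied as much. It had 11.2, 22.7 and 67.3 FPKM (lowest, median and highest) in vitamin D villi, against 8.80, 18.6 and 118 FPKM in vehicle villi, the highest being vehicle replicates 1 and 2. The difference was 0.03 ± 0.64 (limma adjusted p = 0.993), with a 95% interval from -1.35 to 1.41. In crypts it was -0.57 ± 0.77 and in colon 0.40 ± 0.50. The villus intervals of Pdk4 (-0.90 to 2.30) and Angptl4 hold both 0 and the 1.01 measured for Ppard, so a change of that size could not be told from none.

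**Figure D4:**
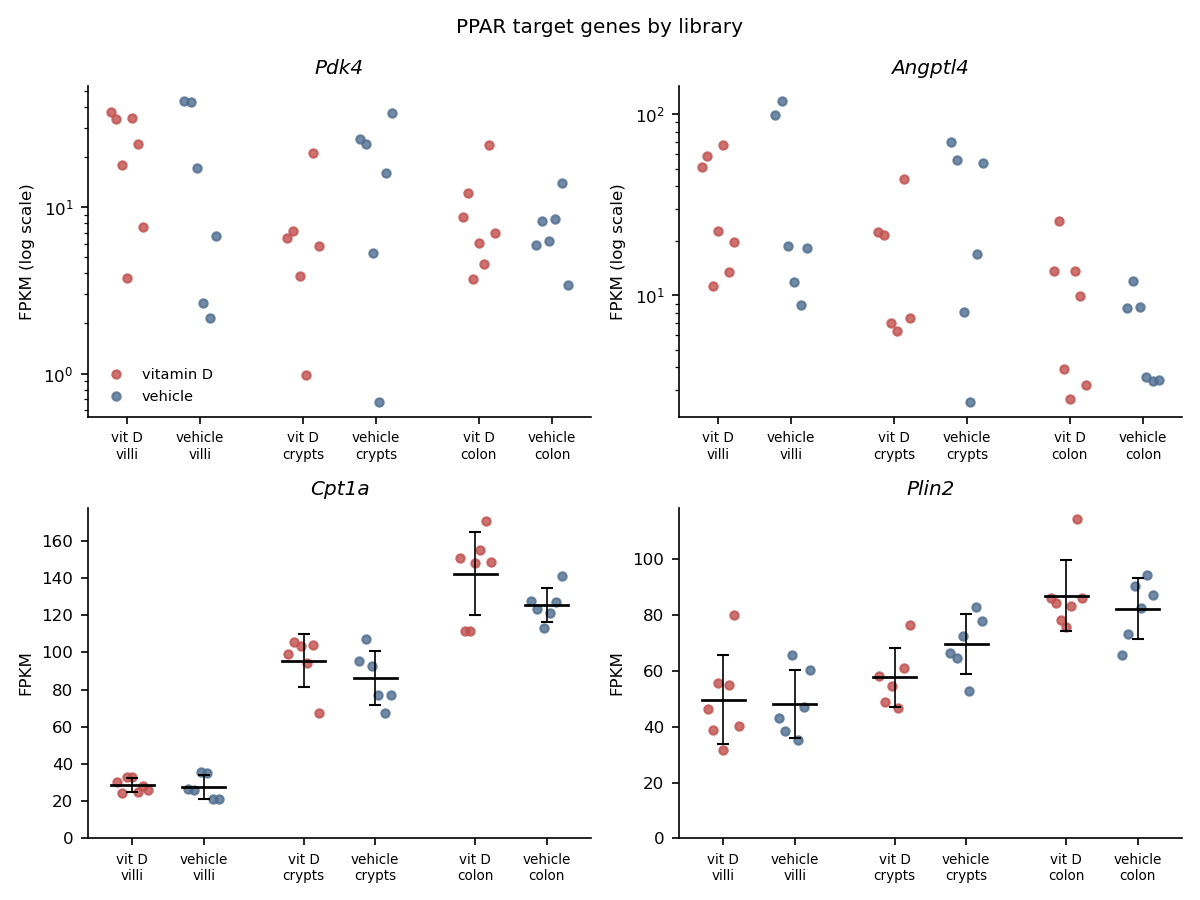
FPKM of the PPAR target genes Pdk4 and Angptl4 (log axes) and of Cpt1a and Plin2 (linear axes from 0, with mean and SD) in each library, vitamin D left of vehicle. Pdk4 spans 3.76 to 37.3 FPKM in vitamin D villi and 2.17 to 43.3 FPKM in vehicle villi, whereas Cpt1a and Plin2 vary less within a group.

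Plin2, which coats lipid droplets, was measured far more tightly. It averaged 49.7 ± 15.9 FPKM in vitamin D and 48.3 ± 12.2 in vehicle villi, 57.7 ± 10.6 and 69.5 ± 10.7 in crypts, and 86.9 ± 12.8 and 82.3 ± 10.9 in colon (SD). The log2 differences were 0.02 ± 0.20, -0.27 ± 0.13 and 0.08 ± 0.11 (limma adjusted p = 0.982, 0.361 and 0.909). Ucp2, a carrier of the inner mitochondrial membrane, was the most abundant member in each tissue and differed by -0.03 to 0.10 on the log2 scale.

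Creb3l3, a membrane-bound factor that acts with PPARα on lipid genes in the liver, had 273 to 433 FPKM in vitamin D villi and 267 to 456 FPKM in vehicle villi (-0.04 ± 0.14, limma adjusted p = 0.947). In colon it was low and uneven, at 3.60 to 30.8 FPKM with vitamin D and 6.06 to 34.4 FPKM with vehicle. The highest colon libraries were vitamin D 6 and 7 and vehicle 5 and 6, which were also the highest in the 12 enterocyte markers (709, 692, 1733 and 970 FPKM summed, against 324 or less in the others). These highest libraries all had the male pattern, and they are the only colon libraries with column names that begin with a number. Cyp4a10, a fatty acid omega-hydroxylase, was below the filter in colon; it was at 6.09 FPKM in vitamin D 6 and 2.83 FPKM in vehicle 5, and at 0.305 or less in the others. The parts of marker levels, sex pattern and column naming in these values were not tested.

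In crypts Cyp4a10 had 0.844 to 3.25 FPKM (median 1.39) in vitamin D libraries and 1.00 to 7.30 FPKM (median 4.40) in vehicle libraries (-1.08 ± 0.39, limma adjusted p = 0.210). Only vehicle replicate 4 among the vehicle libraries lay below 2.88 FPKM. Acot1 and Acot2 encode acyl-CoA thioesterases of the cytosol and of mitochondria, respond to PPARα, and are close paralogs, so reads may have been split between them. Acot2 had 6.42, 9.47 and 13 FPKM (lowest, median and highest) in vitamin D colon, against 4.88, 6.00 and 6.92 FPKM in vehicle colon. Of the 7 vitamin D libraries, 5 lay above all vehicle libraries (0.56 ± 0.16, limma adjusted p = 0.216). Acot1 in colon differed by 0.37 ± 0.24 (adjusted p = 0.797), and in crypts the differences were -0.61 ± 0.42 for Acot1 and -0.56 ± 0.48 for Acot2, neither called.

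Fabp4, the fatty acid binding protein of fat cells and capillary endothelium and a PPARγ target, was near 0 in the small intestine, at 0.266 FPKM or less in every library of villi and crypts. In colon it had 1.83, 67.5 and 222 FPKM (lowest, median and highest) in vitamin D libraries, against 1.1, 21.3 and 53.2 FPKM in vehicle libraries. The difference was 1.01 ± 1.23 (limma adjusted p = 0.898). Vitamin D replicates 2 and 3 were the highest in Fabp4, at 222 and 143 FPKM, and also in the summed level of 6 adipocyte markers, at 112 and 87.4 FPKM, against 5.06 to 51.4 FPKM in the other vitamin D libraries and 10.6 to 36.1 FPKM in vehicle libraries. One of these markers, Cidec, was at 47.7 to 122 FPKM in villi, where the other 5 together reached at most 0.130 FPKM. Without Cidec the sum in colon was 94.7 and 87.4 FPKM in vitamin D replicates 2 and 3, 0 to 37.5 FPKM in the other vitamin D libraries and 0.0676 to 27.1 FPKM in vehicle libraries. Of the 3 markers tested in colon, Adipoq differed by 0.94, Cfd by 0.65 and Cidec by -0.38, none called. The part of adipose tissue in this difference was not tested.

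Neighbouring genes of the pathway were read from lists of RXR partners, coregulators, ketone body enzymes, further oxidation enzymes, fatty acid uptake, lipid droplet and omega oxidation genes and other PPAR targets, which hold 90 genes. In villi 1 of the 64 tested was called, in crypts 0 of 70 and in colon 1 of 69 by limma, against 2.47%, 1.46% and 0.823% of all genes. The authors' deposited tables call 3, 4 and 2, against 3.60%, 4.28% and 1.64% of all genes. At an unadjusted p under 0.05 in limma, 6 were higher and 0 lower in villi, 1 higher and 13 lower in crypts, and 4 higher and 3 lower in colon, against 7.51% higher and 4.66% lower of all genes in villi, 8.22% and 7.05% in crypts, and 4.17% and 3.88% in colon.

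Crat, carnitine acetyltransferase, which buffers acetyl groups in mitochondria and peroxisomes, was the gene called in villi. It had 59.9, 76.9 and 99.4 FPKM (lowest, median and highest) in vitamin D libraries, against 41.9, 53.0 and 67.0 FPKM in vehicle libraries, and rose by 0.58 ± 0.13 (limma adjusted p = 0.0242). The groups overlapped in vitamin D replicate 7 and vehicle replicate 3. In colon it differed by 0.27 ± 0.09 (adjusted p = 0.286) and in crypts by 0.22 ± 0.28 (0.747).

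Acacb makes the malonyl-CoA that inhibits Cpt1a, and was the gene called in colon. It had 3.97, 7.98 and 9.72 FPKM (lowest, median and highest) in vitamin D libraries, against 2.73, 3.47 and 3.87 FPKM in vehicle libraries. The groups did not overlap, and the rise was 0.93 ± 0.18 (limma adjusted p = 0.0203). In crypts it differed by 0.58 ± 0.38 (adjusted p = 0.500), and in villi it was below the filter.

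Rxra, a retinoid X receptor gene, differed by 0.17 ± 0.36 in villi, -0.31 ± 0.22 in crypts and -0.59 ± 0.24 in colon (limma adjusted p = 0.910, 0.541 and 0.498). The fatty acid transporter Cd36 and the fatty acid binding protein Fabp1 were not called in any tissue; in crypts they differed by -1.33 ± 0.67 and -0.85 ± 0.47 (limma adjusted p = 0.375 and 0.424), where 11 of 12 enterocyte markers were also below 0.

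Levels also differed between the tissues. The FPKM tables of the tissues were treated as scaled separately, so these levels carry no test of their own. In vehicle libraries 7 of the 30 members were highest in villi, 14 in crypts and 9 in colon. When libraries were rescaled to the same summed FPKM, 24 of the 30 kept their order. Ppara and Decr1 then stood highest in villi, and Hadha and Hadhb in colon, no longer in crypts. The count for each tissue therefore depends on the scale. By FPKM Ppard was nearly even, at 154 ± 9.63 FPKM in crypts, 133 ± 18.8 in villi and 128 ± 6.95 in colon (SD, n = 6 each), neighbouring levels that overlapped. Among vitamin D libraries the authors' deposited tables call it in each comparison, on a scale of their own. Their log2 ratio was -0.49 for crypts over villi, -1.04 for colon over villi and -0.42 for colon over crypts. The authors' adjusted p was 0.00156, 1.41e-10 and 3.75e-05 in that order. The log2 ratios of mean FPKM were -0.002, -0.34 and -0.34.

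Some genes of the carnitine shuttle and of short chains were highest in colon. Slc25a20 averaged 190 ± 52.2 FPKM in vehicle colon, 46.7 ± 8.34 in crypts and 40.1 ± 8.99 in villi (SD). Cpt1a averaged 126 ± 9.16 FPKM in colon, 86.2 ± 14.7 in crypts and 27.6 ± 6.33 in villi. Acads, the short-chain dehydrogenase, averaged 110 ± 13.5 FPKM in colon, 37.3 ± 3.53 in crypts and 27.6 ± 3.24 in villi. For each of these genes the colon libraries lay above those of the other tissues, and Slc25a20 overlapped between crypts and villi.

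Others were highest in villi. Creb3l3 averaged 369 ± 70.5 FPKM in vehicle villi, 214 ± 101 in crypts and 16.2 ± 11.4 in colon (SD). Ehhadh averaged 108 ± 13.4 FPKM in villi, 74.7 ± 25.2 in crypts and 25.6 ± 4.28 in colon. Hadh averaged 620 ± 129 FPKM in villi, 488 ± 148 in crypts and 237 ± 25.8 in colon. Villi and crypts overlapped for each of these genes, and both lay above colon.

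Acot1 and Acot2 were highest in crypts. Acot1 averaged 24.0 ± 11.4 FPKM in vehicle crypts, 5.36 ± 1.89 in colon and 1.19 ± 0.732 in villi (SD), and Acot2 averaged 17.7 ± 9.80, 5.97 ± 0.816 and 2.83 ± 0.769. Pparg averaged 11.6 ± 2.06 FPKM in colon, 3.69 ± 0.608 in villi and 2.09 ± 0.357 in crypts, with no overlap between tissues. Acadm was the most even, with 1.09-fold between its highest and lowest tissue.

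The authors' deposited tables compare the tissues among vitamin D libraries on a scale of their own, on which the log2 ratios lay below the FPKM ratios, with a median difference over genes of -0.49 for crypts over villi, -0.70 for colon over villi and -0.08 for colon over crypts. The direction of each table was read by comparison with the FPKM ratios. At an adjusted p of 0.05 they list 3 members higher and 16 lower of 29 in crypts over villi, 7 higher and 20 lower of 30 in colon over villi, and 7 higher and 13 lower of 30 in colon over crypts. Of all genes given an adjusted p there, 31.6% were higher and 30.4% lower in crypts over villi, 37.8% and 27.0% in colon over villi, and 32.6% and 23.9% in colon over crypts. The share of lower members depends on the scale. In crypts over villi 25 of 29 members lay below 0 on the authors' scale and 13 of 29 by FPKM, in colon over villi 21 and 15 of 30, and in colon over crypts 20 and 19 of 30. Of the members the authors' tables list as lower, 5 in crypts over villi, 5 in colon over villi and 0 in colon over crypts had an FPKM ratio above 0.

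**Figure D5:**
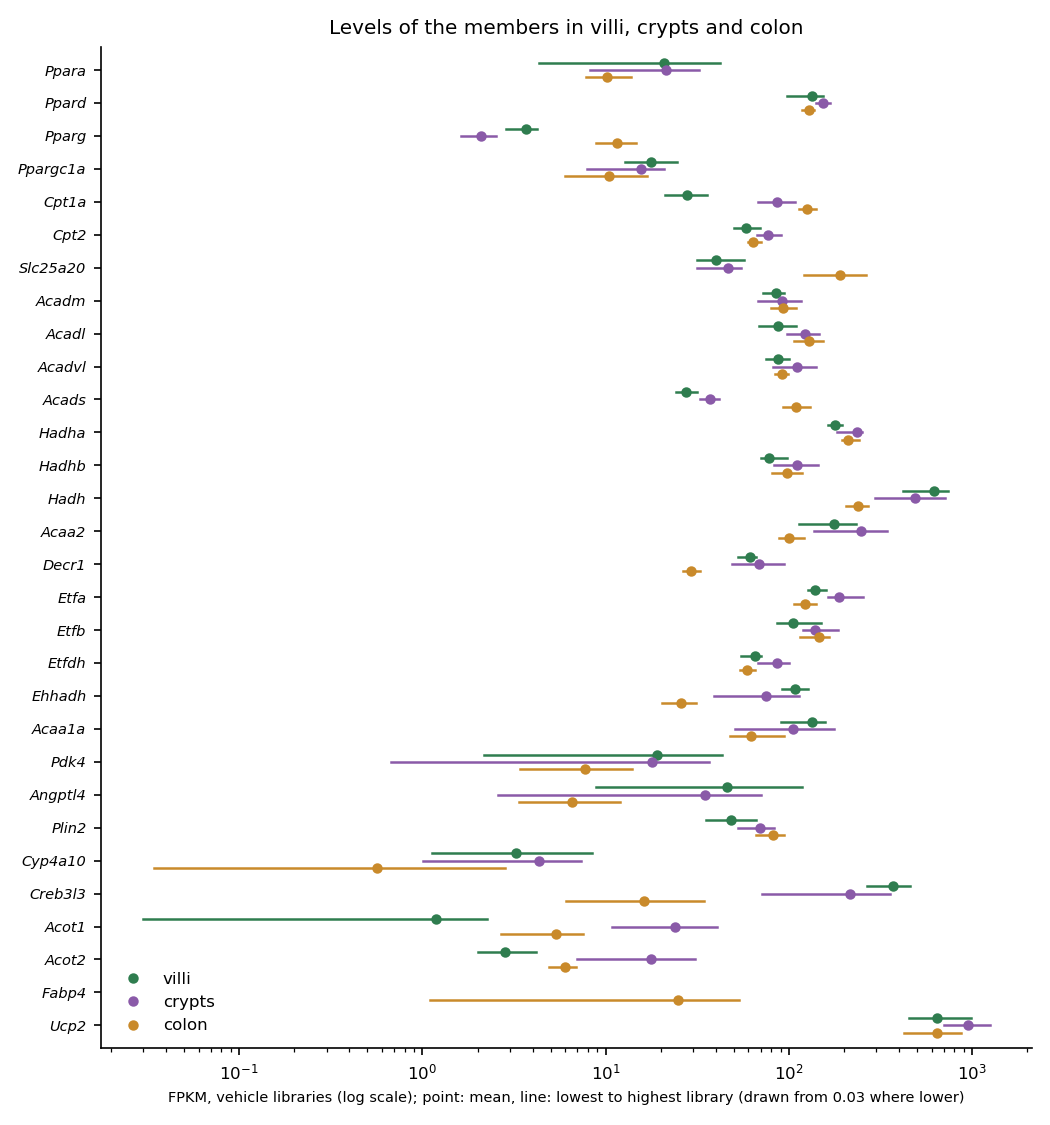
FPKM of the members in the vehicle libraries of villi, crypts and colon on a log axis; points are means over 6 libraries and lines run from the lowest to the highest library. Cpt1a, Slc25a20 and Acads are highest in colon and Creb3l3, Ehhadh and Hadh in villi, whereas Ppard is nearly even by FPKM. Fabp4 in villi and crypts, with means of 0.0389 and 0.0188 FPKM, is not drawn.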

How the data were processed

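The authors deposited 1 table of FPKM per tissue, and comparison tables that hold a mean level (the signal over the libraries compared), a log2 fold change with its error, a score (the test statistic) and raw and adjusted p-values, per the file headers. The submitters' processing notes name kallisto 0.45.0, DESeq 1.28.1, DESeq2 and mm9, with no roles stated. FPKM are not counts, so no count model was run. Depth was derived from the steps of low values (78.2% to 91.6% of values worth under 30 reads lay within 0.05 of a whole number).

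Groups came from the sample titles. Vitamin D was set against vehicle in limma 3.58.1, with a trend and run in R 4.3.3, on log2(FPKM + 0.5) of genes that reached 1 FPKM in at least 6 libraries of the tissue, at a Benjamini-Hochberg adjusted p under 0.05. Fabp4 in villi and crypts and Cyp4a10 in colon did not pass the filter. Differences of response were contrasts in 1 fit over 38 libraries, taken as independent. Links between tissues of the same mice, if any, were not modelled. The fits were tested on simulated data. All 30 members are named, with Vdr and Cyp24a1, and of the other lists Rxra, Cd36, Fabp1 and up to 3 called genes per list and tissue; some genes of this rule are not reported here. Members and lists were chosen with earlier results of these data known. Among the listed genes, 171 were found by symbol and 7 by an older one; 4 were not analysed here.

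Treatments share replicate numbers. Deviations of same-numbered libraries from their group means correlated at 0.102 to 0.465 in villi, 0.119 to 0.545 in crypts and 0.0569 to 0.572 in colon. In the replicate block the numbers were taken to pair libraries in villi and crypts, an assumption that these overlapping ranges do not establish. The limma fits behind the reported calls used no pairing. In each tissue the same-numbered vehicle library was not always the best match. Villus pair 6 joins a library of the female with one of the male pattern. The alternatives were pseudocounts of 0.1 and 1, other filters and scalings, the replicate block, sex pattern and name style as covariates, array weights, each library left out and the authors' deposited tables. Fits with label name style, with enterocyte markers or without several named libraries were chosen after seeing the data. Promoter windows are RefSeq's on GRCm38.p6, and no coordinates of the files' build are given.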

Additional observations from a re-analysis of the deposited data

Results flagged for a closer look

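Among 174 groups of libraries of the members, 10 held a library far from the others by Dixon's criterion, which chance alone meets in about 1 group in 20. Vehicle villi replicate 5 was low for Ppard, at 97.8 FPKM where the next library had 134, and high for Hadhb at 97.9 FPKM, where the next had 78.5. Vehicle villi replicate 4 was low for Decr1 at 52.7 FPKM, and vehicle villi replicate 3 high for Cyp4a10 at 8.41 FPKM, where the next had 3.51. In crypts, vitamin D replicate 6 was low for Cpt1a at 67.2 FPKM, vitamin D replicate 5 high for Pdk4 at 21.1 FPKM, and vehicle replicate 4 low for Hadha at 184 FPKM, where the next had 228. In colon, vitamin D replicate 6 was high for Pdk4 at 23.5 FPKM and for Plin2 at 114 FPKM, and vehicle replicate 5 was high for Acaa1a at 93.4 FPKM. The colon libraries vitamin D 6 and vehicle 5 were also among the 4 highest in enterocyte markers. Both had the male pattern and column names that begin with a number.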

How the results depend on the processing

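Ppard was called in each tissue under each alternative run, and no member called in a tissue under any setting changed sign in that tissue. Among 90 pairs of a member and a tissue, 36 changed sign between settings, and 0 of these 36 were called under any. Over single members, 24 values moved past the threshold and 6 lost it, against 5352 that did neither. These values pool treatment effects with differences of response, of which none was called as reported. The 5352 are therefore not treatment effects alone. The cause of the moves was not tested. In villi, 240 genes were called as reported, 108 with plain-named columns alone, 92 with plain-named labels alone and 436 in the authors' deposited table. The 1 villus member called became 2 with rescaling to the same summed FPKM, the replicate block, enterocyte markers as a covariate or the authors' table, and 3 with the block by column number, which adds Ehhadh and Pparg (adjusted p = 0.0426 and 0.0310 in limma). In crypts, 157 genes became 1253 with array weights, 444 with the replicate block, 272 with sex, 391 with label name style and 374 with enterocyte markers as a covariate, 68 with plain-named labels alone, 379 without vehicle 4, 5 and 6, and 550 in the authors' table. The 2 crypt members became 8 with array weights, 5 with the block and 1 with plain-named labels alone; sex as a covariate, leaving out vehicle 4, 5 and 6, and the authors' table each gave 3. In colon, 95 genes became 176 with array weights, 147 with the block, 146 with column name style as a covariate, 57 without vitamin D 1 and 2 and 246 in the authors' table. The block in colon was not taken to pair libraries, as its lowest pair correlated at 0.0569.

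With each library left out in turn, genes called ranged from 172 to 220 in villi, 105 to 1059 in crypts and 66 to 141 in colon; the lowest crypt count came without vehicle 1 and the highest without vehicle 4. Members called stayed at 1 in villi and colon and ranged from 1 to 8 in crypts. Differences of response were called for 3 genes in villi minus crypts (1 to 4 with a library left out, 10 with the block), 47 in villi minus colon (31 to 53, 154 with the block) and 8 in crypts minus colon (4 to 11, 24 with the block). With rescaling to the same summed FPKM, villi minus crypts gave 0 calls in limma and 418 genes at an unadjusted p under 0.05. The replicate block changed no other member's call than those given here and in the report. In simulated data of the same group sizes, log2 changes of 0.75 were recovered for 87% of changed genes in villi (9667 genes tested), 73% in crypts (10691) and 69% in colon (11661). Changes were planted only in genes with a mean level well above the filter, and noise was drawn independently for each gene. These shares therefore need not hold for low members or where spread is shared across genes. Smaller changes were not simulated, and how far depth limits low genes was not tested.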

Other observations

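Ppara in villi went largely with the sex pattern of the library, with ranges that overlapped slightly. Libraries with the female pattern had 12.9 to 41.9 FPKM and those with the male pattern 4.32 to 13.04 FPKM, both treatments pooled. In crypts, where 1 library of each treatment had the male pattern, these were the lowest of their treatment, at 8.14 FPKM with vitamin D and 8.21 FPKM with vehicle. In colon the ranges overlapped, at 5.88 to 14.4 FPKM for the female and 6.94 to 13.8 FPKM for the male pattern. In villi every library with a column name that begins with a number had the male pattern, so sex pattern and column naming cannot be fully told apart. The difference was not tested.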
